A study of Mus musculus with 4 samples.

Results

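The genes described are 10 macrophage immune regulators outside the IL-1 family, namely the cytokine genes Tnf, Il6, Il12b, Osm, Il15, Il10, Tgfb1, Il27 and Ebi3 and the receptor gene Il10ra. They were listed by symbol, with no threshold on measured values, and each was matched to its Entrez identifier, giving 10 of the 16739 genes with a value in any library. For the comparison of inflammatory with suppressive signals, Tnf, Il6, Il12b, Osm and Il15 formed the inflammatory class of 5 genes and Il10, Il10ra and Tgfb1 the suppressive class of 3 genes. Il27 and Ebi3, the 2 subunits of IL-27, for which both kinds of action are known, were kept apart.

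The RNA came from tumor-associated macrophages (TAMs) that were sorted as CD45+CD11b+F4/80+ cells from B16-F10 melanomas, a mouse line of the C57BL/6 strain, 16 days after the tumor cells were placed under the skin of the abdomen. The hosts were C57BL/6 mice, 6 to 8 weeks old at inoculation, either wild type (WT, 2 libraries) or labelled Trim24-/- (Trim24-deficient, 2 libraries). Per the paper's methods, the deficient mice carried floxed Trim24 alleles and Cre driven by the lysozyme M promoter (LysM-Cre), which is active in myeloid cells and not in macrophages alone, and littermates served as WT controls. The sources used here do not say how many mice went into a library, so p-values measure only the spread between these samples, which may be in part technical.

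The libraries held 4476122 to 5172407 expected counts, so that 3 counts, taken as the lowest detectable count, corresponded to 0.58 to 0.67 CPM (counts scaled to a common library total). Trim24, the gene targeted in the mutants, had 5.84 CPM in WT replicate 1 and 2.08 CPM in WT replicate 2. In the pair of libraries labelled Trim24-deficient it had 3.40 CPM (replicate 1) and 0.41 CPM (replicate 2), so the groups overlapped (log2 fold change -1.06, SE 0.82, adjusted p = 0.635 in edgeR's quasi-likelihood test). Values per gene do not show whether the floxed exon was read, so the genotype labels were not checked by this transcript. Xist, transcribed from the inactive X chromosome of females, had 10.9 and 6.44 CPM in the WT libraries and 436 and 255 CPM in the mutant-labelled libraries, whereas the Y-linked gene Ddx3y had 73.5 and 102 CPM against 0.42 and 0.41 CPM. Genotype and sex therefore cannot be told apart in any comparison here, although the methods describe sex-matched mice. All 8 macrophage markers, such as Csf1r and Adgre1, were detected in every library, at a summed level of 8581 to 10429 CPM.

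Cytokines made by macrophages tell neighbouring cells whether to attack or to stand down. TNF and IL-6 drive acute inflammation, IL-12 directs T cells and NK cells towards interferon-gamma, and IL-15 sustains NK cells and memory CD8 T cells, whereas IL-10 and TGF-beta restrain macrophages and T cells. IL-12, IL-23 and IL-27 are each built from an alpha chain and a beta chain, and IL-6, oncostatin M and IL-27 share the signalling receptor gp130. TAMs are commonly described as rich in suppressive signals, and the balance of the classes is a usual measure of their state.

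Transcript levels differed widely among the 10 genes. In FPKM, a level per gene length and library total, the IL-10 receptor gene Il10ra (mean 49.96 ± 15.7, SD over the 4 libraries), Tnf (46.5 ± 11.8) and Ebi3 (46.0 ± 8.46) stood highest and their ranges overlapped. Il15 (19.98 ± 6.21), Osm (17.9 ± 3.68), Il27 (13.4 ± 7.66) and Il10 (11.4 ± 2.81) came next, with overlapping ranges between neighbours, and no library of Il15 reached the lowest FPKM of Ebi3. Tgfb1, whose level is uncertain for a reason given with its values (0.96 ± 0.291), Il12b (0.67 ± 0.844) and Il6 (0.32 ± 0.267) were at the bottom, and the highest of their values, 1.92 for Il12b, lay below the lowest of Il27, 4.91. Among all 16739 genes the mean FPKM of Il10ra stood at percentile 89.1, that of Il10 at 68.8 and that of Il6 at 24.8.

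**Figure D1:**
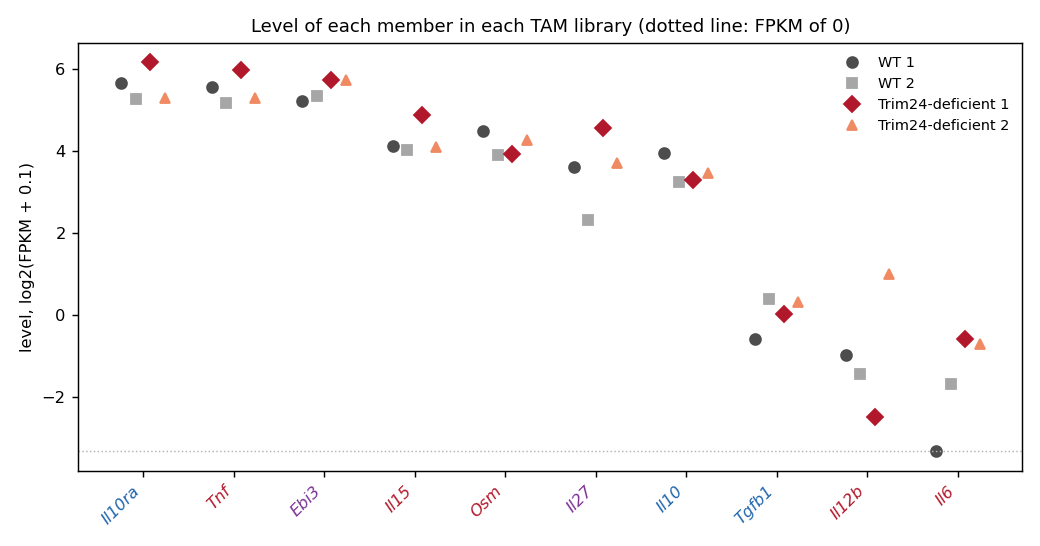
Level of each gene as log2(FPKM + 0.1) on the vertical axis, with 1 symbol per TAM library and genes ordered by mean FPKM (red names, inflammatory class; blue, suppressive class; purple, IL-27 subunits). The inflammatory and the suppressive class each had members near the top and near the bottom, with Il6 and Il12b, but also Tgfb1, far below the rest.

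The promoters of Tnf and Ebi3, 2 of the most abundant members, and of Il6 and Il12b, the 2 least abundant, are printed so that the sequence can be read beside these unequal levels. The sequences are from RefSeq (GRCm38.p6), in which 5 of the 10 genes had an entry, and run 5′ to 3′ along the gene from 250 bases before to 50 bases after its start. Capitals mark the 10-base NF-kappaB consensus and the TATA box letters TATAAA, both searched on either strand.
Tnf, chr17:35201958-35202257, minus strand: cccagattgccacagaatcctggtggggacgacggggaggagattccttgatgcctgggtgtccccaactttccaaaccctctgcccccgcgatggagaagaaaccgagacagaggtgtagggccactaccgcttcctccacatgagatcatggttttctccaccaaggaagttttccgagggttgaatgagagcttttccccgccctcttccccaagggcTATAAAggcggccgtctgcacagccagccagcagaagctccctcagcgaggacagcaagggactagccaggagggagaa
Ebi3, chr17:55952373-55952672, plus strand: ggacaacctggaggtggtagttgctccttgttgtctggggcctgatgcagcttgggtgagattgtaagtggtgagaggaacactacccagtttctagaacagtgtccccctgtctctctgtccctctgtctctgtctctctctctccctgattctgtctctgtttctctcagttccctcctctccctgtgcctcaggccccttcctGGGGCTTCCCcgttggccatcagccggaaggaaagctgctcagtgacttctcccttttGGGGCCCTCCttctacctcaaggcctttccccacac
Il6, chr5:30012864-30013163, plus strand: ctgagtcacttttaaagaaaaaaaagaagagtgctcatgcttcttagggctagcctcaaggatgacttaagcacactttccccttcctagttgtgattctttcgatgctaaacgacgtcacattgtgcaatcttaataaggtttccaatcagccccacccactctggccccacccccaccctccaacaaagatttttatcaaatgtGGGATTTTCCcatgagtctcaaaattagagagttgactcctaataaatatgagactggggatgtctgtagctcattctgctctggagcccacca
Il12b, chr11:44399813-44400112, plus strand: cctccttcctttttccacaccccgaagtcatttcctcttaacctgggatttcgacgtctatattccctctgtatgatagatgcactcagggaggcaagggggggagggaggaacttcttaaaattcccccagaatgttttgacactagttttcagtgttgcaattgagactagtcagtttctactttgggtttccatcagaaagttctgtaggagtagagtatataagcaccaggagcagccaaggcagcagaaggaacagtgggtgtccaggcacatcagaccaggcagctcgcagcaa
The NF-kappaB consensus, the binding motif of a factor family that drives inflammatory genes, was matched in Il6 by GGGATTTTCC, 44 bases before the start, and in Ebi3 by GGGGCTTCCC, also 44 bases before the start, and by GGGGCCCTCC, 14 bases after it. The Tgfb1 window held GGGACCCCCC, 140 bases before the start. Of all 32851 promoter windows 8.46% held this consensus. TATAAA stood 29 bases before the start of Tnf and in 13.6% of all windows. The STAT-type motif TTCNNNGAA was in 8.30% of windows, and an interferon-response motif of 2 GAAA blocks parted by 2 bases in 3.44%. Neither was matched in any of the 5 windows, and Il12b held none of the 4 motifs. The Stat6 motif given in the paper has 4 bases between TTC and GAA and was not searched. NF-kappaB letters were thus present in a gene of high level (Ebi3) and in genes of low level (Il6 and Tgfb1). A match describes letters in a window and not a bound site.

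The question the study asked of these libraries was how TAMs differ when Trim24 is removed from myeloid cells. None of the 10 genes passed the study's thresholds (fold change above 1.5, FDR below 0.05) in edgeR's quasi-likelihood test or in limma on log2(FPKM + 1). For Il6 and Il12b these were fits without a filter on low values. Nor did any of the 8 genes tested in DESeq2 pass, where Il6 and Il12b had no adjusted p. Across all 11302 genes that passed the low-count filter, 0.372% were called in edgeR. Of the 10 genes, 8 passed that filter and Il6 and Il12b did not. Of these 8, 2 (Il27 and Ebi3) had an unadjusted p under 0.05, against 12.2% of all genes tested. 7 of the 8 had a log2 fold change above 0 (6 on library totals, where Osm turned negative), and the median of the 8 was 0.45, beside -0.0059 over all genes. 3 of the 8 (Il15, Il27 and Ebi3) were higher in both mutant-labelled libraries than in both WT libraries, in TMM-scaled CPM, the scale on which overlap is judged below, as were 21.4% of all genes, and none was lower in both, which held for 23% of all genes. An exact two-sided permutation test of a single gene, with 2 libraries against 2, cannot give a p below 0.33.

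The mutant-labelled libraries were not alike in these genes. Replicate 1 was above both WT libraries for 5 of the 8 genes (Tnf, Il15, Il10ra, Il27 and Ebi3), where 36.8% of all genes were. Replicate 2 was above both for 4 of the 8 (Il15, Tgfb1, Il27 and Ebi3), where 37.8% of all genes were. Neither replicate was below both WT libraries for any of the 8 genes, and the share of all genes for this is not given here. Tnf, Il15 and Il10ra, which belong to opposing classes, were thus highest in the same library.

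**Figure D2:**
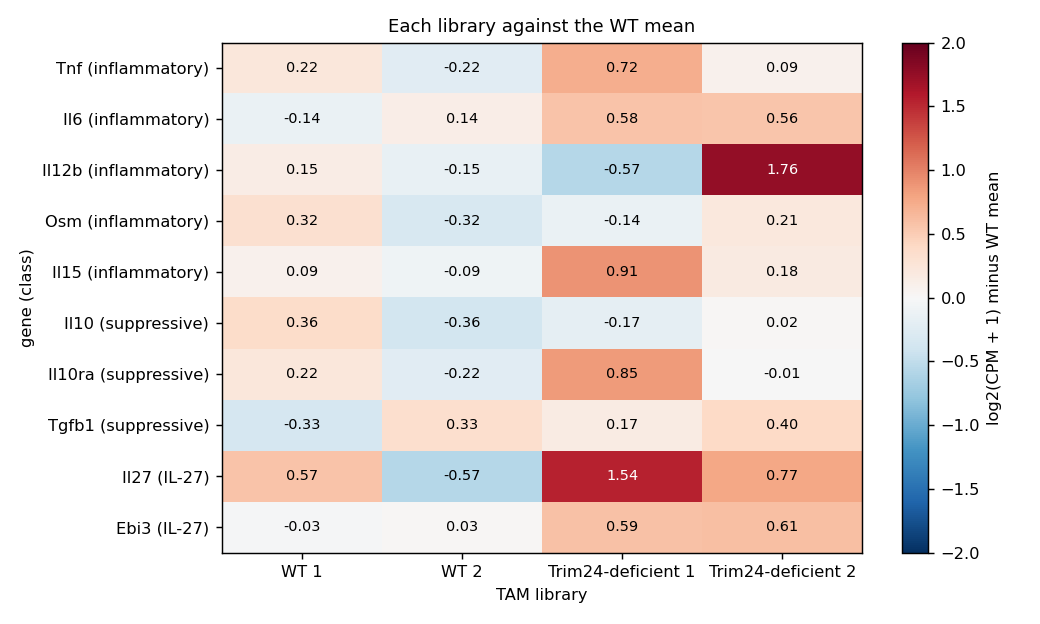
Each tile gives log2(CPM + 1) of a gene in a TAM library minus the mean of the 2 WT libraries (rows, genes with their class; columns, libraries; red, above the WT mean; blue, below). Ebi3 had 0.59 and 0.61 in the mutant-labelled libraries, whereas Il10ra had 0.85 in one and -0.01 in the other, and Il12b -0.57 and 1.76.

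The IL-27 subunits were higher in both mutant-labelled libraries than in both WT libraries on TMM-scaled CPM, library totals and FPKM alike, Ebi3 evenly and Il27 with more spread. Il27 encodes the alpha chain p28 and Ebi3 the beta chain, which join to form IL-27, a cytokine that primes T cells for interferon-gamma and also induces IL-10. The level of Il27 was 12.2 and 4.91 FPKM in WT replicates 1 and 2 and 23.5 and 13.0 FPKM in the mutant-labelled replicates 1 and 2. The groups did not overlap, but the higher WT library lay close to the lower mutant-labelled one. The log2 fold change was 1.22 (SE 0.48, 95% interval 0.14 to 2.30, unadjusted p = 0.030, adjusted p = 0.351 in edgeR).

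The level of Ebi3 was 37.3 and 40.3 FPKM in WT and 53.3 FPKM in each mutant-labelled library. Replicates of a group were close to each other and the groups did not overlap. The log2 fold change was 0.61 (SE 0.19, 95% interval 0.19 to 1.03, unadjusted p = 0.0094, adjusted p = 0.228 in edgeR), and it stayed within 0.59 to 0.63 whichever library was left out. For Il27 that range was 0.70 to 2.07. The size for Ebi3 depended more on scaling. With all libraries kept it was 0.46 on library totals, 0.45 in limma on log2(FPKM + 1) and 0.66 with the length correction, where a 1.5-fold change is 0.585. Without the mutant-labelled replicate 2, Il27 passed the thresholds (1.58, adjusted p = 0.0274).

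Both subunits share exonic sequence with genes of the opposite strand in the GENCODE annotation of GRCm38, and whether reads were counted by strand is not given in the sources used here. Il27 (chr7:126589009-126595035) shares 103 of 1021 exonic bases with Apobr, whose expected counts were 135 and 187 in WT and 189 and 168 in the mutant-labelled libraries. Ebi3 (chr17:55952623-55957022) shares 270 of 1154 exonic bases with Gm16712, an antisense RNA with 62 and 59 counts in WT and 102 and 91 in the mutant-labelled libraries. In RefSeq the interval of Ebi3 also overlaps that of Zfp119b, which had 28.3 and 23.9 counts in WT and 37.3 and 35.9 in the mutant-labelled libraries. Gm16712 stood higher in the same libraries as Ebi3 (log2 fold change 0.70, SE 0.27, adjusted p = 0.330 in edgeR). Without strand, reads that lie within the 270 shared bases cannot be told apart, and reads elsewhere in Ebi3 are not affected by Gm16712. The part of such shared reads in the Ebi3 values was not tested.

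The other chains of the IL-12 family had few reads. Il12b, the p40 chain shared by IL-12 and IL-23, had 5 and 3 expected counts in WT and 1 and 25 counts in the mutant-labelled replicates. The exact Poisson 95% interval of the highest library, 16.2 to 36.9 counts, lay above those of the other 3 libraries, of which the widest reached 11.7 counts. A single library thus held most Il12b reads, and the fold change of 1.70 on the log2 scale (SE 1.07, 95% interval -0.65 to 4.05, adjusted p = 0.698 in edgeR without the low-count filter) turned to -1.82 without it. Il12a, the p35 chain of IL-12, had 0, 1, 1 and 0 counts in the same order and Il23a, the p19 chain of IL-23, had 1, 0, 0 and 1, so that no difference was detectable at this depth.

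Of the receptors of this family, Il12rb1, the chain shared by the IL-12 and IL-23 receptors, was at 12.8 and 5.48 FPKM in WT and 31.7 and 17.4 FPKM in the mutant-labelled libraries. The groups did not overlap (log2 fold change 1.56, SE 0.40, 95% interval 0.66 to 2.45, adjusted p = 0.172 in edgeR). Il12rb2, the second IL-12 receptor chain, was near 1 FPKM except in the mutant-labelled replicate 1, with 0.98 and 0.75 FPKM in WT and 2.60 and 1.12 FPKM in the mutants. Il27ra, which binds IL-27, was at 1.47 and 1.58 FPKM against 2.87 and 0.57 FPKM, and the groups overlapped. Replicate 1 of the mutant-labelled libraries was the highest for all 3 receptors. T and NK cells carry these receptors too, and the summed level of 6 T and NK cell markers was 24.2 and 20.2 CPM in WT and 61.8 and 16.0 CPM in the mutant-labelled replicates, with 5 of the 6 detected in each library and Trac, a T cell receptor gene, without a value in any. The part of these cells in the receptor values was not tested. In bulk samples, more cells of a type and more RNA per cell cannot be told apart.

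Tnf, an early mediator of inflammation, was at 47.5 and 36.2 FPKM in WT and 62.6 and 39.6 FPKM in the mutant-labelled libraries. The mutant-labelled replicate 2 lay between the WT libraries, so the groups overlapped. Its log2 fold change was 0.43 (SE 0.25, 95% interval -0.14 to 0.9999, adjusted p = 0.525 in edgeR), and a doubling lay at the edge of the interval. Without the mutant-labelled replicate 2 it was 0.71 and passed the thresholds (adjusted p = 0.0308), and without replicate 1 it was 0.076.

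Around TNF, the gene of its main receptor Tnfrsf1a was at 88.7 and 93.8 FPKM in WT and 109 and 78.3 FPKM in the mutants. The second receptor gene, Tnfrsf1b, was at 48.3 and 46.9 against 59.1 and 53.3 FPKM, without overlap (log2 fold change 0.39, SE 0.19, adjusted p = 0.442 in edgeR). Adam17, the protease that frees TNF from the membrane, was at 45.1 to 59.2 FPKM with overlapping groups. Of the 17 genes listed for the TNF pathway beside Tnf itself, 16 were tested, none was called and the list median was 0.31. Without overlap 9 were higher and 2 lower, where 21.4% and 23% of all genes tested were. The largest differences without overlap were those of Tnfaip2, a TNF-induced gene (1.07, SE 0.25, adjusted p = 0.141), of Birc3, an inhibitor of cell death (0.87, SE 0.21, adjusted p = 0.151), and of Tnfaip3, which encodes the NF-kappaB inhibitor A20 (0.73, SE 0.30, adjusted p = 0.373), all on the log2 scale and from edgeR.

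The cytokines that signal through gp130 were of very unequal level. Il6 had 0 and 1 expected counts in WT and 3 counts in each mutant-labelled library. All 4 values were at or under the floor of 3 counts, the exact Poisson 95% intervals reached 3.69 and 5.57 counts in WT and began at 0.62 counts in the mutants, and no difference was detectable at this depth. Osm, which encodes oncostatin M, was at 22.6 and 14.9 FPKM in WT and 15.1 and 19.1 FPKM in the mutant-labelled libraries. Both mutant-labelled libraries lay between the WT libraries, and the log2 fold change was 0.01 (SE 0.26, 95% interval -0.58 to 0.60, adjusted p = 0.989 in edgeR). The sign of this value depended on scaling and was negative, -0.13, on library totals.

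The receptor chains differed in level as well. Il6st, which encodes gp130, was at 7.96 and 8.93 FPKM in WT and 11.8 and 11.1 FPKM in the mutants, without overlap (log2 fold change 0.59, SE 0.19, adjusted p = 0.249 in edgeR). Il6ra, the IL-6 receptor gene, ran the other way, with 19.6 and 21.1 against 15.3 and 13.1 FPKM (-0.37, SE 0.19, adjusted p = 0.463). Osmr, the oncostatin M receptor gene, had 0, 2, 0 and 4 counts, while Lifr, whose product also takes part in binding of gp130 cytokines, was at 15.4 and 17.0 against 8.71 and 15.7 FPKM. Of the 16 listed genes of this family 13 were tested, none was called and the median was -0.08. Without overlap 3 were higher and 2 lower, where 21.4% and 23% of all genes tested were. The largest without overlap after Il6st were Ptpn11, a phosphatase that acts below gp130 (-0.47, SE 0.25, adjusted p = 0.476), and Stat3, the main transcription factor below IL-6 and IL-10 (0.42, SE 0.19, adjusted p = 0.417, in edgeR).

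**Figure D3:**
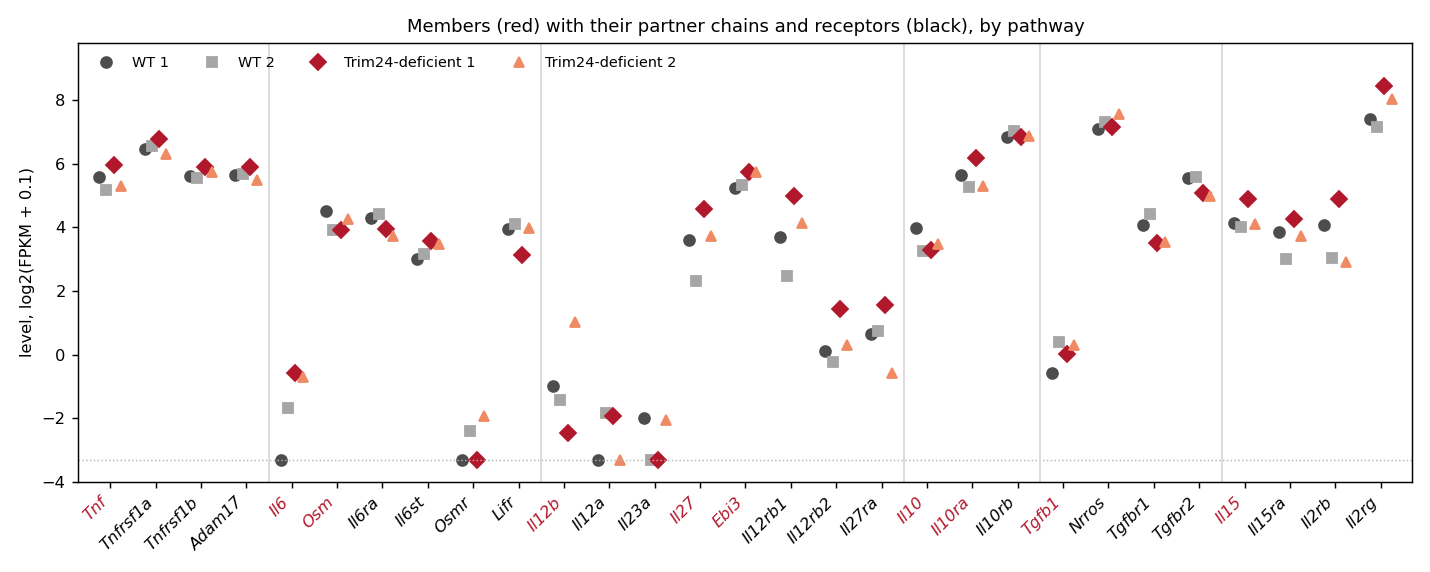
Level of the members (red names) and of the genes of their partner chains and receptors (black names) as log2(FPKM + 0.1), with 1 symbol per TAM library and grey lines between pathways. Il12a, Il23a, Il6 and Osmr lay near the dotted line of an FPKM of 0, whereas Il10rb, Nrros and Il2rg were above 100 FPKM in every library.

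Il15 was at 17.49 and 16.1 FPKM in WT and 29.3 and 17.1 FPKM in the mutant-labelled libraries. On TMM-scaled CPM both mutant-labelled libraries were above both WT libraries (21.8 and 19.1 against 39.1 and 23.2 CPM), whereas in FPKM the second lay between them. The log2 fold change was 0.60 (SE 0.28, 95% interval -0.03 to 1.24, unadjusted p = 0.059, adjusted p = 0.421 in edgeR). It passed the thresholds without the mutant-labelled replicate 2 (0.93, adjusted p = 0.0197) and was 0.18 without replicate 1.

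IL-15 is presented to NK and T cells on its alpha receptor, encoded by Il15ra, which was at 14.4 and 7.87 FPKM in WT and 19.2 and 13.3 FPKM in the mutants, with overlap (log2 fold change 0.64, SE 0.34, adjusted p = 0.478 in edgeR). Il2rg, which encodes the common gamma chain that IL-15 shares with IL-2 and IL-4, was at 168 and 141 against 349 and 261 FPKM, without overlap (1.12, SE 0.23, adjusted p = 0.0937). Il2rb, the chain that IL-15 shares with IL-2 and that NK cells carry, was at 16.8 and 8.02 against 29.5 and 7.43 FPKM. It was highest in the library with the most T and NK cell markers, and their part was not tested. Of the 12 listed genes of the IL-15 pathway 10 were tested, none was called and the median was 0.50. Beside 21.4% and 23% of all genes tested, 3 were higher and none lower without overlap. Besides Il2rg these included Jak3, the kinase bound to the gamma chain (0.61, SE 0.20, adjusted p = 0.264), and Jak1, a kinase of many cytokine receptors (0.13, SE 0.19, adjusted p = 0.831).

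On the suppressive side, Il10 was at 15.5 and 9.48 FPKM in WT and 9.72 and 11.03 FPKM in the mutant-labelled libraries. Both mutant-labelled libraries lay between the WT libraries. The log2 fold change was -0.13 (SE 0.32, 95% interval -0.86 to 0.60, adjusted p = 0.908 in edgeR) and turned to 0.32 without WT replicate 1, the highest library. Within a library the FPKM of Il27 was 0.78 and 0.52 times that of Il10 in WT and 2.42 and 1.18 times in the mutants. Of all the ratios computed, this one alone did not overlap between the groups, and Il27 itself did not overlap either. The ratio of Tnf to Il10 was 3.06 and 3.81 in WT and 6.44 and 3.59 in the mutants, and that of Osm to Il10 was 1.46 and 1.57 against 1.56 and 1.73. Both of these overlapped between the groups.

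Il10ra, the ligand-binding chain of the IL-10 receptor, was at 50.4 and 38.3 FPKM in WT and 72.1 and 39.1 FPKM in the mutants. The mutant-labelled replicate 1 was the highest and replicate 2 lay between the WT libraries. This gave a log2 fold change of 0.47 (SE 0.29, 95% interval -0.18 to 1.11, adjusted p = 0.545 in edgeR). It was 0.84 and passed the thresholds without replicate 2 (adjusted p = 0.0109), and it was -0.025 without replicate 1. Il10rb, the second chain, which IL-10 shares with other cytokines, was more even, at 114 and 130 FPKM in WT and 114 and 118 FPKM in the mutants (0.08, SE 0.19, adjusted p = 0.906). Of the 15 listed genes of the IL-10 pathway 12 were tested, none was called and the median was 0.21. Without overlap 4 were higher and 1 lower, where 21.4% and 23% of all genes tested were. The largest without overlap were Prdm1, encoding the repressor Blimp-1 (1.11, SE 0.41, adjusted p = 0.314), Il4ra, the IL-4 receptor chain (0.48, SE 0.22, adjusted p = 0.419), and Stat3, given above.

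Tgfb1, the TGF-beta ligand usual in macrophages, had 6 and 12 expected counts in WT and 10 and 13 counts in the mutant-labelled libraries, or 0.57 and 1.22 against 0.92 and 1.14 FPKM. The groups overlapped and the exact Poisson 95% intervals ran from 2.20 to 22.2 counts. Its fitted log2 fold change was 0.37 (SE 0.62, 95% interval -1.02 to 1.76, adjusted p = 0.848 in edgeR), so that neither a doubling nor a fall of the same factor lay outside the interval, and without WT replicate 1 it was -0.045. This is a low level for a macrophage population, and whether reads of Tgfb1 were assigned elsewhere by the authors' quantification was not tested, so its place in the order of levels is uncertain.

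Some genes that act around TGF-beta were far above Tgfb1 in FPKM, while others, such as Lrrc32 and Ltbp1, which also hold latent TGF-beta, were below it. Nrros, which tethers latent TGF-beta on myeloid cells, was at 136 and 158 FPKM in WT and 141 and 190 FPKM in the mutants. Tgfbi, a TGF-beta-induced gene, was at 457 to 603 FPKM with overlapping groups. The genes of the type I and type II receptors were lower in both mutant-labelled libraries, Tgfbr1 at 16.7 and 21.2 against 11.2 and 11.5 FPKM (log2 fold change -0.59, SE 0.19, adjusted p = 0.249 in edgeR) and Tgfbr2 at 47.0 and 48.1 against 34.0 and 31.2 FPKM (-0.40, SE 0.18, adjusted p = 0.421). Eng, a co-receptor gene, ran the other way without overlap (0.47, SE 0.23, adjusted p = 0.438), and the receptor gene Acvrl1 had 0.66 with overlap (SE 0.31, adjusted p = 0.426). Of the 25 listed genes of the TGF-beta pathway 18 were tested, none was called and the median was -0.03. Without overlap 4 were higher and 8 lower, where 21.4% and 23% of all genes tested were. The largest differences without overlap were those of Thbs1, encoding a thrombospondin that can activate latent TGF-beta (1.64, SE 0.35, adjusted p = 0.112), Tgfb3, another ligand (1.07, SE 0.45, adjusted p = 0.390), and Itgb5, an integrin chain (-0.90, SE 0.28, adjusted p = 0.224).

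Proteins that bind cytokine transcripts and set their stability formed the last list. All 15 were tested and none was called, with a median of -0.21. Without overlap 1 was higher and 8 were lower, where 21.4% and 23% of all genes tested were. Arid5a, which stabilizes Il6 transcripts, was at 12.7 and 12.9 FPKM in the mutants, above both WT libraries (log2 fold change 0.74, SE 0.21, adjusted p = 0.203 in edgeR). Among those lower in both libraries were Zc3h12c, a relative of the RNase Regnase-1 (-0.84, SE 0.34, adjusted p = 0.363), and Khsrp, which promotes decay of transcripts with AU-rich elements (-0.63, SE 0.30, adjusted p = 0.433). The gene of the best-known of these factors, Zfp36 (tristetraprolin), was at 163 to 234 FPKM with overlapping groups. In the IL-12 family 11 of 14 listed genes were tested and none was called, with a median of 0.49. Beside the same shares of all genes, 6 were higher and 1 lower without overlap. Beside Il12rb1 these included Stat4, which acts below IL-12 (0.62, SE 0.35, adjusted p = 0.503 in edgeR).

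**Figure D4:**
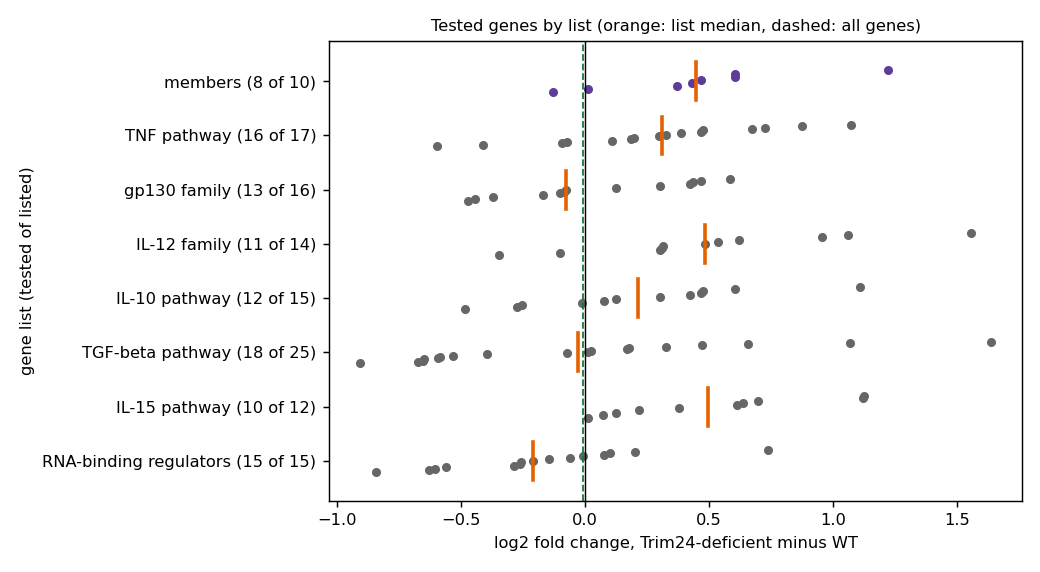
Each point is the log2 fold change (Trim24-deficient minus WT) of a tested gene, by list, with the number tested of those listed. Orange bars are list medians, from -0.21 for RNA-binding regulators to 0.50 for the IL-15 pathway and 0.45 for the members, and the dashed line is the median of all tested genes, -0.0059.

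The classes were then set against each other. The median log2 fold change was 0.60 in the inflammatory class, with all 5 above 0 (Osm, at 0.01, fell below 0 on library totals). It was 0.37 in the suppressive class, with 2 of 3 above 0, a difference of 0.23. The suppressive median is the value of Tgfb1 itself (SE 0.62), whose level is uncertain, and the difference without Tgfb1 was not computed. Il6, at or under the floor in every library, counts among the 5. Without it the inflammatory values ran from 0.01 for Osm to 1.70 for Il12b with a median of 0.52, and the difference was 0.15. Leaving out the receptor Il10ra gave 0.48, and leaving out the mutant-labelled replicate 2 gave 0.51. The mean log2(CPM + 1) of the inflammatory genes minus that of the suppressive genes was -0.87 and -0.96 in WT and -0.90 and -0.50 in the mutant-labelled libraries. One mutant-labelled library lay between the WT libraries and the other above both, with a pooled SD of 0.21. Il12b, with its 25 counts, stood 1.76 above its WT mean in the latter, on the log2(CPM + 1) scale. Without Il12b the score was -0.27 and -0.34 in WT and -0.07 and -0.18 in the mutants, both above both WT libraries. The difference of the medians was then 0.15. The score without Il12b still held Il6, which was 0.58 and 0.56 above its WT mean in the mutants though at or under the floor. A score without both genes was not computed, so this separation is not a result for Tnf, Osm and Il15. Of these, Il15 alone was above both WT libraries in both mutant-labelled libraries, on TMM-scaled CPM. Osm in both mutant-labelled libraries and Tnf in replicate 2 lay between the WT libraries. The IL-27 pair had a median of 0.91. No test was made of the class values, since the members were listed with earlier results known.

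**Figure D5:**
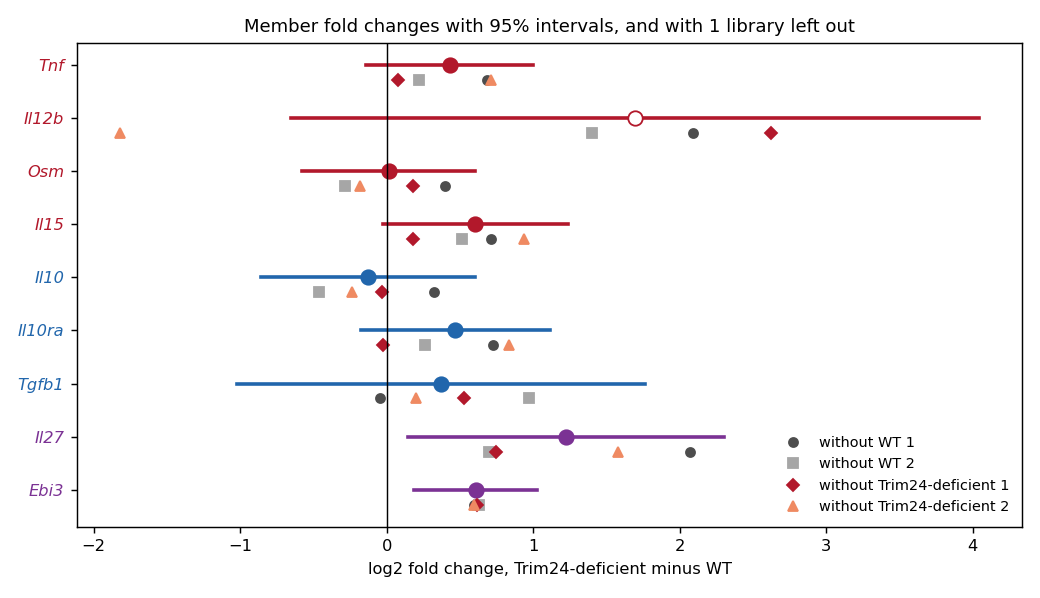
Large points give the log2 fold change (Trim24-deficient minus WT) with its 95% interval as a line, open for Il12b, which failed the low-count filter, and small symbols give the value with 1 library left out. Il6 is not drawn, as all its counts were at or under 3. The interval excludes 0 for Il27 and Ebi3 alone, and the values of Il10ra, Tgfb1, Il10, Osm and Il12b change sign when a library is left out.

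Markers of other cells moved with the groups in part. The summed level of 4 monocyte markers, such as Ly6c2 and Ccr2, was 501 and 621 CPM in WT and 1537 and 977 CPM in the mutant-labelled libraries, with 4 of 4 detected in each. Ly6c2, Ccr2 and Plac8 were higher without overlap, whereas Vcan overlapped between the groups (log2 fold change 0.13, SE 0.30). That of 6 neutrophil markers was 176 and 205 CPM against 270 and 408 CPM, with 4 or 5 detected in WT and 6 in the mutants. Ly6g and Retnlg, on which the detection differed, failed the low-count filter. S100a8, S100a9 and Csf3r were higher without overlap. Cxcr2 ran the other way with overlap, at 63.5 and 83.8 against 42.7 and 76.7 CPM (log2 fold change -0.30, SE 0.28). Monocytes and neutrophils also make cytokines such as TNF and oncostatin M, and the part of these cells in the values of Il27, Ebi3, Il15 and Tnf was not tested. Dendritic cell markers summed to 44.9 and 37.0 CPM against 75.6 and 33.6 CPM, highest in the library in which Il27, Il15 and Tnf were highest. Xcr1 and Clec9a carried that sum, whereas Flt3 was lower without overlap, at 3.83 and 5.40 against 1.27 and 0.20 CPM (log2 fold change -2.61, SE 0.73, adjusted p = 0.206 in edgeR). Endothelial markers summed to 18.9 and 17.7 CPM in WT and 41.9 and 27.1 CPM in the mutants, of which Pecam1, which leukocytes express too, was 15.9 and 5.61 against 35.9 and 21.9 CPM. Of the 6 melanoma markers, which summed to 781 and 738 against 583 and 787 CPM, 5 had a log2 fold change below 0 and 3 (Mlana, Dct and Tyrp1) were lower without overlap. No tested marker on these lists was called in edgeR. Fibroblast markers summed to 2.42 to 4.10 CPM and B cell markers to 1.02 to 3.12 CPM.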

How the data were processed

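RNA sequencing libraries of sorted TAMs from 2 WT and 2 Trim24-deficient samples were grouped by their genotype labels. Reads had been aligned with Bowtie to GRCm38 (mm10) and genes quantified with RSEM by the authors, per the labels and the submitters' processing notes, which give no versions. The authors deposited an expected count for each gene, not normalized, and an FPKM, scaled by RSEM to gene length and library total. The deposited tables list only genes above 0, and a missing gene was set to 0. A transcript length column was used for a length correction only.

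After rounding of the expected counts, edgeR 4.0.16 (R 4.3.3) was used with filterByExpr, TMM scaling and glmQLFit and glmQLFTest without a block, with Benjamini-Hochberg adjustment over the 11302 genes tested. The study's thresholds, an FDR below 0.05 together with a change of more than 1.5-fold, defined called genes. Il6 and Il12b failed the filter, and the Il12b values are from the fit without it. Standard errors come from the log2 fold change over the square root of F. CPM values use TMM-scaled library sizes. With 4476122 to 5172407 expected counts in a library, a count of 3 was equal to 0.58 to 0.67 CPM, and intervals and floors cover counting error only. Symbols were matched for 16698 of 16739 genes by Entrez identifier.

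Named are the 10 members, Trim24, their direct receptors and partner chains, and from each pathway list up to 3 genes with the largest change among those whose groups did not overlap. The value of 1 further gene that this rule names is not reported here. Nrros, Tgfbi, Lrrc32, Ltbp1, Eng, Acvrl1, Zfp36, Xist, Zfp119b, Ddx3y, Gm16712 and Apobr were named outside this rule or after their values were seen, for their role or as overlapping genes. The members, lists and tests were chosen with earlier results of these data known. The code was tested on simulated data. Alternatives were DESeq2 1.42.0, limma 3.58.1 on log2(FPKM + 1) and log2(FPKM + 0.1), other scalings, filters and thresholds, a replicate block, a length correction and each library left out in turn. Leaving Il6 or Il12b out of the class was added after the data were seen.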

Additional observations from a re-analysis of the deposited data

How the results depend on the processing

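Of 133 recomputed log2 fold changes of the members, 117 kept their direction and side of the thresholds, 11 changed sign and 5 newly passed. Osm was -0.13 on library totals, -0.044 with upper-quartile factors, -0.10 in limma on log2(FPKM + 1), filtered or for all genes, and -0.11 with a pseudocount of 0.1. With 1 library left out, values changed sign for Osm (-0.28 to 0.40), Il10 (-0.46 to 0.32), Il10ra (-0.025 to 0.84), Tgfb1 (-0.045 to 0.97) and Il12b (-1.82 to 2.63). Ebi3 passed the thresholds in none of its 14 alternatives (adjusted p = 0.0825 to 0.999). For Il27 (1.07 to 1.28 with all libraries) the adjusted p ran from 0.0257 to 0.999. Library totals moved the median of all genes by -0.15 and the length correction by 0.16, relative to which the members are to be read.

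The number of members called, 0, was 1 with the replicate block (Il27, 1.28, adjusted p = 0.0257) and 0 to 4 with 1 library left out, the 4 being Tnf, Il15, Il10ra and Il27 without the mutant-labelled replicate 2, where the lone mutant library is assumed to vary like WT. Same-numbered libraries deviated together only weakly (r = 0.17 across 11302 genes, 2 pairs), and no source pairs them. Over all genes, 42 were called in edgeR, 156 in DESeq2, 23 and 20 in limma with pseudocounts of 1 and 0.1, 0 in limma on all genes, 633 with the replicate block and 22 to 744 with 1 library left out. The cause was not tested.

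The class difference of 0.23 was 0.48 without Il10ra, 0.14 with the IL-27 subunits counted as suppressive, 0.17 with the replicate block and 0.21 to 0.51 with 1 library left out, the highest without the mutant-labelled replicate 2. It was not computed with at least 10 counts in every sample or in limma on filtered FPKM, where members were missing. Depth limits Il6, Il12b and Tgfb1, with at most 3, 25 and 13 counts, and for Tgfb1 the assignment of reads is also in doubt.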
